A study of Mus musculus with 4 samples.

Results

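Ciliated cells of the mouse tracheal surface were chosen by the share of their RNA that came from a small marker set. A cell was a member when it had at least 300 genes, at most 20% of its unique molecular identifiers (UMIs, each one captured RNA molecule) on genes of the mitochondrial genome, at least 0.5% of its UMIs on the 8 genes Ccdc153, Tmem212, Dynlrb2, Sec14l3, Tppp3, Riiad1, Mlf1 and Rsph1, and under 2% on Scgb1a1, the main secreted protein of club cells. This gave 4526 members among 20359 cells that passed the first 2 bounds, or 22.2% (exact 95% interval 21.7 to 22.8, counting error only). The matrix held 21667 barcodes in all. Since the members were selected on these counts, the difference between members and other cells in any gene is a description and carries no test.

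The study sequenced tracheal cells of mice aged 5 to 8 months on the 129S6/SvEvTac background with a droplet 3' kit. Its 4 samples were wild-type, bgh (a mutation of Spef2), Cfap54gt/gt (a gene trap in Cfap54) and nm1054 (which lacks Cfap221), each a single library of cells pooled from 6 tracheas, or from 5 for bgh. Pronase digestion, plating against fibroblasts and removal of dead cells preceded loading of 8500 cells, and these steps can set which cells were captured. The barcodes carry a library number from 1 to 4, and no source used here ties a number to a genotype. Libraries are therefore called by number, no genotype was read from the values, and genotypes were not compared.

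Ciliated cells carry bundles of motile cilia whose core, the axoneme, is a ring of microtubule doublets driven by dynein arms. Their beat moves mucus up the airway and consumes ATP along the whole length of each cilium. The transcription factors Foxj1 and those of the RFX family switch on the axonemal genes when a precursor cell becomes multiciliated. Beside the axoneme, the mature cell makes enzymes of metabolism and detoxification, surface proteins and defence products, and the results follow that order.

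Libraries 1 to 4 held 1058, 938, 1291 and 1239 members with median depths of 3436, 2191, 2158 and 2462 UMIs. Members made up 27.8%, 23.7%, 18.0% and 22.8% of the filtered cells of these libraries. Across members the median marker share was 1.19%, all 8 markers were detected in the median cell, and 99.7% of members had at least 3 of them. The summed markers were at 9871 to 11043 counts per 1000000 UMIs (CPM), against 205 to 282 in cells of a basal gate (1806 cells with at least 0.5% of UMIs on basal markers) and 787 to 982 in a secretory gate (8449 cells with at least 2% Scgb1a1). The secretory gate was deeper, with library medians of 9781 to 17597 UMIs, and the basal gate had medians of 3124 to 5341. Foxj1, which the rule did not use, was at 268, 385, 372 and 384 CPM in members and at 1.75 to 3.45 CPM in the basal gate. The rule fixed the marker sums, and of these values only Foxj1, higher in members in every library, bears on the label independently.

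The bound at 0.5% fell within a continuum of cells. The 262 members with a share of 0.5 to 0.6% had a median of 7333 UMIs and 2992 CPM on 25 axoneme genes taken as a reference, and the 218 cells just outside, at 0.4 to 0.5%, had 9078 UMIs and 2524 CPM. All members together had 4094 CPM on those genes, and the 6449 cells with under 0.1% had 35.4 CPM. On the other bound, 47 members had 1 to 2% Scgb1a1 and 17 cells had 2 to 3%. The cells left outside near the marker bound were therefore deep and still rich in axoneme RNA.

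RNA of other cell types was low in members, and secretory RNA was the most abundant. Markers of leukocytes, fibroblasts and endothelium summed to at most 6.64 CPM in any library, and Col1a1, Col3a1, Cdh5 and Kdr were at 0. Markers of basal cells summed to 56.4 to 111 CPM, of tuft cells to 19.7 to 73.3 CPM and of neuroendocrine cells to 11.3 to 80.9 CPM. Ionocyte markers summed to 106 to 123 CPM, nearly all of it Atp6v1c2, and the ionocyte factor Foxi1 was at 0.43 CPM at most. The 8 secretory markers summed to 7730, 8493, 18993 and 11627 CPM in members, 7659 to 16447 CPM in the basal gate and 330373 to 356031 CPM in the secretory gate. Library 3 was highest among members on this sum, an excess that most of its cells did not share, as given below. Scgb1a1 itself was at 1067 to 1906 CPM in members and at 963 to 1596 CPM in the basal gate. Members and the basal gate are both bounded at 2% Scgb1a1 per cell, and the part of free RNA in these levels was not tested. Markers of goblet cells summed to 15.6 to 21.6 CPM (Muc5ac at 0), of hillock cells to at most 33.2 CPM, of deuterosomal cells to 107 to 129 CPM, and of muscle and cartilage to 47.7 to 66.0 CPM. Libraries shared 52 barcode sequences, which 19 members carried.

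The genes mutated in the study's lines are axonemal, and each was checked in every library. Cfap54 was at 120, 4.49, 118 and 121 CPM in members of libraries 1 to 4. Cfap221 was at 11.7, 14.5, 0 and 10.7 CPM, and 0 UMIs in library 3 allow at most 0.868 CPM (exact 95% limit). Spef2 was at 164, 248, 239 and 238 CPM. Library 2 was lowest on Cfap54, library 3 on Cfap221 and library 1 on Spef2. What set these levels was not tested, and no library was tied to a line by them.

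Members were compared with the secretory and the basal gate of the same library over 12818 genes with at least 50 UMIs summed over the 3 gates. A gene was counted when it was at least 2-fold higher, or lower, than both gates in all 4 libraries, on the log2 scale of CPM plus 1. By that count 1755 genes were higher (13.7%) and 187 were lower (1.46%). Against the basal gate alone 16.5% of genes were higher and 8.79% lower, and against the secretory gate alone 21.5% and 2.61%. The median gene stood at a log2 ratio of 0.16 against the basal gate and 0.57 against the secretory gate. The medians of each list below are read against those values, and its counts against 13.7% higher and 1.46% lower. With median-of-ratios scaling the all-gene medians fell to 0.06 and 0.03, and the counts became 1234 higher and 423 lower. Under that scaling the medians against the secretory gate of glycolysis, the mitochondrial genome, aldehyde enzymes, junctions, virus receptors, MHC class II and pattern recognition turned negative. The secretory gate held axoneme RNA at 367 to 438 CPM, against 3682 to 4319 CPM in members, and the axoneme reference list had a lower median ratio against it than against the basal gate.

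RFX factors bind a near-palindrome known as the X-box, and promoters of the higher genes were searched for it. The search used the letters GTNNCC and GGNNAC in this order with 2 bases between them, which read the same on both strands, in the RefSeq promoters of build GRCm38.p6, from 250 bases before to 50 after each start. Of the 1755 higher genes, 1411 were found there by symbol. A match was present in 146 of 1821 promoters (8.02%) of the higher genes, against 2.50% of promoters of all genes tested and 1.88% of all promoters listed. Higher genes without axonemal names had it in 6.87% of promoters, and those with such names in 14.04%. The lower genes had it in 1.74%. The shorter GTTGCC, on either strand, which can lie within an X-box match, was in 23.8% of promoters of the higher genes and 13.1% of those of all genes tested. The forkhead core TGTTTAC, on either strand, was in 3.35% of promoters of the higher genes and 2.67% of those of all genes tested. A match is a description of letters, and binding was not measured. The following upstream stretches show the match in capitals for the genes without axonemal names with the highest mean level among matches, and for 1 axonemal gene beside them. Hsph1 has 2 listed starts, and 1 is shown.
Tm4sf1, chr3:57301989-57302238, minus strand: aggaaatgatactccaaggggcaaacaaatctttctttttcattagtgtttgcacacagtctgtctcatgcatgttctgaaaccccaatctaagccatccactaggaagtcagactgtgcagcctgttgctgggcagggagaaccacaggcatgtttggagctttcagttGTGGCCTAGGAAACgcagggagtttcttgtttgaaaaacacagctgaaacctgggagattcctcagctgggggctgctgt
Pifo, chr3:106001498-106001747, minus strand: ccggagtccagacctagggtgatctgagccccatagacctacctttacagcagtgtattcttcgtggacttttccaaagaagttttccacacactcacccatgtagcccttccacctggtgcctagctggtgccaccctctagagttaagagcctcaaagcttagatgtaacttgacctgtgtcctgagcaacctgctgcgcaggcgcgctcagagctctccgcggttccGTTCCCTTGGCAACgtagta
Hsph1, chr5:149636337-149636586, minus strand: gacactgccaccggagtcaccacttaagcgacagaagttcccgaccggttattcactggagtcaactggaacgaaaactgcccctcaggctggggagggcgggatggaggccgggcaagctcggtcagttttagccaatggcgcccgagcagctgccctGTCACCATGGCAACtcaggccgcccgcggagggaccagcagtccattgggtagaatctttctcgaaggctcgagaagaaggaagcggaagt
Cfap126, chr1:171122795-171123044, plus strand: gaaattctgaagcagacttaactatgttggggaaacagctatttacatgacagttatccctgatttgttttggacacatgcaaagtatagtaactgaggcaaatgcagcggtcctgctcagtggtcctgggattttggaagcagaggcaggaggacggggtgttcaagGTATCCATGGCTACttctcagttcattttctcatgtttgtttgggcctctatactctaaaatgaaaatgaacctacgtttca
The match began 80 bases before the start in Tm4sf1, a tetraspanin-like membrane protein, 20 before it in Pifo, a ciliary protein, 91 before it in Hsph1, a heat shock protein, and 82 before it in Cfap126.

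Among genes without axonemal names, 521 were at least 4-fold higher than both gates in every library, beside 244 with axonemal names or in the marker set. Ifitm1, a small interferon-inducible membrane protein that hinders the entry of viruses, was at 8995, 8275, 7625 and 7867 CPM in members. It was at 830 to 1193 CPM in the secretory gate and 877 to 1004 CPM in the basal gate, so the gates did not overlap. Chchd10, a protein of the mitochondrial inner membrane region, was at 1677, 2869, 2539 and 2262 CPM, against 274 to 359 and 65.2 to 92.5 CPM. Prdx5, a peroxiredoxin, was at 2027, 2059, 1912 and 2528 CPM, against 271 to 409 and 149 to 231 CPM. Members were above both gates in all 4 libraries for each of these genes, which the choice of the group required.

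Other named genes of that group had varied roles. Tm4sf1 was at 1291, 1588, 1367 and 1249 CPM, against 186 to 367 CPM in the secretory gate. Ly6c1, a glycolipid-anchored surface antigen better known from blood cells and endothelium, was at 596, 484, 479 and 614 CPM, against 37.9 to 62.7 and 8.15 to 25.2 CPM; of the 5 endothelial markers 4 were at 0 in members. Nudc, a partner of the dynein motor and of Hsp90, was at 745, 818, 765 and 920 CPM, against 134 to 174 and 78.4 to 125 CPM. Chchd6, a part of the complex that shapes mitochondrial cristae, was at 455, 599, 522 and 524 CPM. Elof1, a transcription elongation factor, was at 1747, 2032, 1958 and 2112 CPM, against 186 to 216 and 85.8 to 101 CPM. Glipr1, A2ml1, Arhgdig, Capsl, Calml4, Vpreb3, Fbxo36, Bphl, Sntn and Nme9 belong to the same group, with mean levels from 478 to 995 CPM in members, alongside genes that carry only a clone name, such as 1110017D15Rik at 1395 to 1662 CPM. Sntn, Pifo and Nme9 are ciliary despite their names. The group was set by gene symbols alone, so it is not free of cilia genes, and genes with clone names were not checked.

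**Figure D1:**
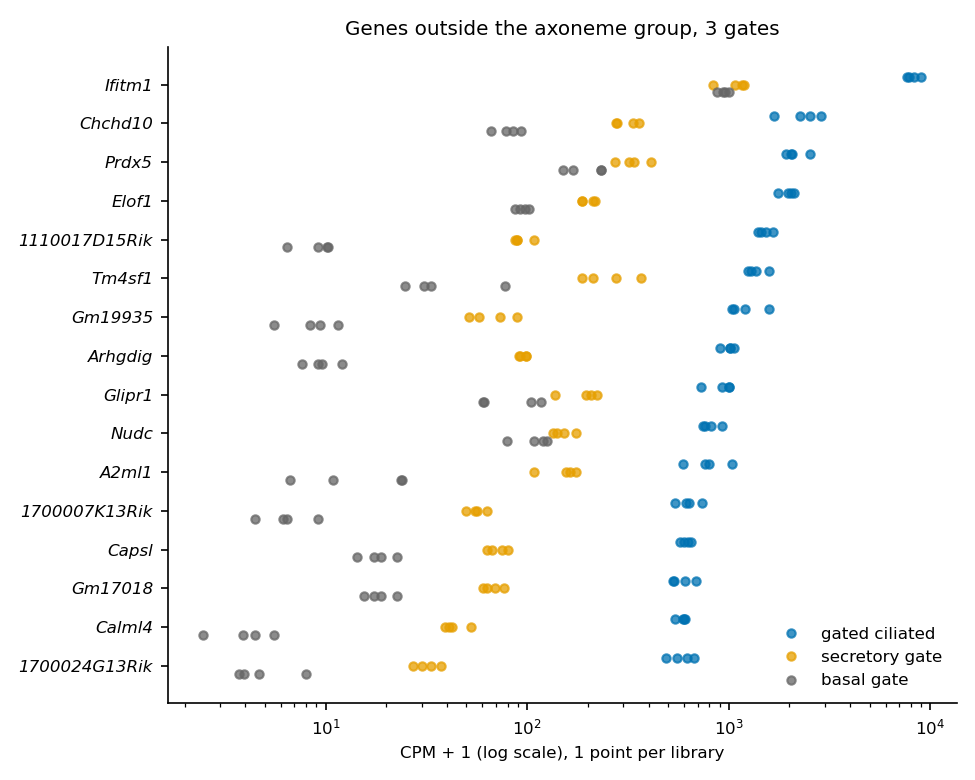
Levels of 16 genes without axonemal names in 3 gates, as CPM plus 1 on a log axis, with 1 point per library and gate. The genes were chosen as at least 4-fold higher than both gates in every library. In each row the 4 points of gated ciliated cells lie to the right of all points of the other gates, for Ifitm1 at 7625 to 8995 CPM against at most 1193.

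On the other side, 43 genes were at least 4-fold lower than both gates in every library. Scgb3a2, a secretoglobin, was at 120, 118, 778 and 448 CPM in members, against 17011 to 19511 CPM in the secretory gate and 1845 to 3772 CPM in the basal gate. The basal keratin Krt15, which helped to define the basal gate, was at 33.0 to 69.9 CPM. Krt23 was at 35.2 to 107 CPM, against 1108 to 1771 and 550 to 1079 CPM. Epas1, a hypoxia-inducible transcription factor, was at 61.0, 54.6, 80.4 and 73.3 CPM, against 259 to 326 and 337 to 402 CPM. Aqp5, a water channel, was at 89.2, 72.9, 80.9 and 164 CPM, against 357 to 805 and 1050 to 1647 CPM. Sprr1a, Serpinb2, Calcb, Krt4 and Upk3bl completed the named set, all with means of 31.1 CPM or less in members. The named lower genes were thus mostly secretory products and keratins or surface proteins of stratified layers.

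The lists of energy metabolism had unlike medians. Of 17 glycolysis genes measured, 4 were higher than both gates and none lower, with medians of -0.01 against the basal gate and 0.13 against the secretory gate. Slc16a3, a lactate exporter, was at 48.0, 40.4, 51.3 and 47.8 CPM in members, against 5.03 to 5.89 CPM in the secretory gate and at most 1.48 CPM in the basal gate. Ldhb, the lactate dehydrogenase subunit of oxidative tissues, was at 175, 202, 245 and 294 CPM, against 46.0 to 81.7 and 17.5 to 19.5 CPM. The other 2 were Pfkl and Tpi1, and the central enzyme Gapdh was at 504 to 576 CPM with log2 ratios of -0.31 and 0.11. Slc16a3 and Ldhb were thus higher in a list whose median lay below that of all genes.

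Fatty acid oxidation and ketone use had the higher medians, 1.15 and 1.27. Of 18 genes, 6 were higher than both gates and none lower: Oxct1, Etfa, Etfb, Echs1, Acadm and Acat1. Oxct1, the enzyme that lets a cell burn ketone bodies, was at 168, 168, 191 and 157 CPM, against 60.5 to 77.6 CPM in the secretory gate and 41.9 to 57.0 CPM in the basal gate. Etfa and Etfb, which pass electrons from fatty acids to the respiratory chain, had log2 ratios of 1.62 and 1.56 against the basal gate and 1.73 and 1.26 against the secretory gate. Cpt1a, the entry step for long-chain fatty acids, was at 15.6 to 18.6 CPM with ratios of 0.26 and 1.07 and was not counted. In the pyruvate and citric acid cycle group 3 of 19 were higher, Suclg1 and Mpc1 among them, with medians of 0.54 and 0.75. That count was close to the share of 13.7% over all genes.

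The respiratory chain differed less. Of 21 nuclear genes of oxidative phosphorylation, 2 were higher than both gates, Ndufc1 and Cox6c, with medians of 0.33 and 0.82. None of the 13 genes of the mitochondrial genome was higher or lower; their sum was 42985 to 48917 CPM in members, 41082 to 43117 CPM in the secretory gate and 46457 to 57220 CPM in the basal gate. The rule bounded mitochondrial UMIs at 20%, so this sum is not free of the selection.

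Enzymes that move high-energy phosphate formed the most shifted metabolic list. Of 18 genes, 8 were higher than both gates and none lower, with medians of 1.30 and 1.49. The adenylate kinases Ak7, Ak8 and Ak9 and the nucleoside diphosphate kinase family members Nme5, Nme7 and Nme9 are known from cilia or the axoneme. The shift of this list is therefore not separate from that of the cilia genes. Ak1, the common cytosolic adenylate kinase, was at 49.3, 57.7, 51.0 and 60.6 CPM in members, against 3.80 to 4.95 CPM in the secretory gate and at most 2.96 CPM in the basal gate. Ckb, the creatine kinase of brain and other tissues, was at 153, 253, 361 and 240 CPM, against 12.9 to 31.8 and 2.22 to 5.18 CPM. Nme1, a common nucleoside diphosphate kinase, was at 64.0 to 89.5 CPM with ratios of -0.96 and -0.36.

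Among redox and detoxifying enzymes, 4 of 20 glutathione and peroxide genes were higher than both gates (Prdx5, Prdx6, Sod2 and Gstp1) and none was lower. Over all genes 13.7% were higher. Prdx6, a peroxiredoxin that also handles phospholipids, was at 3246, 2621, 2646 and 3276 CPM, with ratios of 1.49 and 1.38. Gstp1 was at 314, 188, 80.9 and 132 CPM, and library 3 was lowest. The near-identical Gstp2 followed the same order, at 148, 94.0, 28.2 and 65.8 CPM, so reads of the pair may be split between them.

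Aldehyde and xenobiotic enzymes went in both directions, with 3 of 20 higher (Aldh1a1, Aldh3b1 and Cyp2s1) and 2 lower (Aldh3a1 and Adh7). The shares over all genes were 13.7% higher and 1.46% lower. Aldh1a1, a retinaldehyde dehydrogenase, was at 2693, 2206, 3026 and 2660 CPM, against 951 to 1222 and 310 to 482 CPM. Cyp2a5, a cytochrome P450 of the airway and liver, was at 2901, 2523, 2466 and 3139 CPM in members and at 1913 to 2373 CPM in the secretory gate, against 142 to 260 CPM in the basal gate. Cbr2, a carbonyl reductase, was at 6796 to 7228 CPM, against 4073 to 5654 and 2481 to 3959 CPM. These enzymes are often given as club cell products. Their median log2 ratios against the secretory gate, 0.34 and 0.53, were below the all-gene median of 0.57. Cyp2f2, by contrast, was at 2265 to 3188 CPM with ratios of -0.10 and -0.80.

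At the cell surface, junction and adhesion genes were higher about as often as all genes (13.7%). Of 21 such genes 3 were higher than both gates: the cadherin family members Cdhr3 and Cdhr4 and the small glycoprotein Cd24a. Cdhr3, whose human form is a receptor of rhinovirus C, was at 222, 204, 264 and 246 CPM, with ratios of 7.01 and 3.03. Cd24a was at 1937, 2437, 2383 and 1716 CPM, with ratios of 1.81 and 1.74. The list's medians were -0.64 and 0.22, and Cldn1, a claudin of basal layers, was at 1.29 to 2.82 CPM with a ratio of -5.20 against the basal gate.

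None of 13 virus receptors and entry proteases was higher than both gates, and Icam1 was lower. Tmprss2, an entry protease, was at 62.6, 66.3, 89.1 and 66.8 CPM. None of 24 receptors for hormones, nucleotides and cytokines was counted in either direction.

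Ion and water transport gave 2 higher genes, Clic6 and Slc9a3r1, and 3 lower ones, Ano1, Slc12a2 and Aqp5, of 15. Of all genes 13.7% were higher and 1.46% lower. Clic6, a chloride channel family member, was at 112, 140, 174 and 143 CPM, against 34.5 to 53.5 and 1.97 to 6.66 CPM. The chloride channel Cftr was at 1.93 to 4.61 CPM and the sodium channel subunit Scnn1b at 0 in all libraries. Scnn1a, its partner subunit, was at 73.6 to 89.9 CPM with ratios of 1.23 and 0.40. Of 15 genes of the apical cortex and microvilli 2 were higher, about as often as among all genes. They were Prom1, which marks membrane protrusions, at 131 to 183 CPM against at most 44.1 CPM in either gate, and Eps8, an actin-capping protein of microvilli and stereocilia. The secretory pairing of chloride uptake and release, Slc12a2 and Ano1, was thus low in members, at 8.15 to 10.6 and 0.86 to 3.53 CPM.

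**Figure D2:**
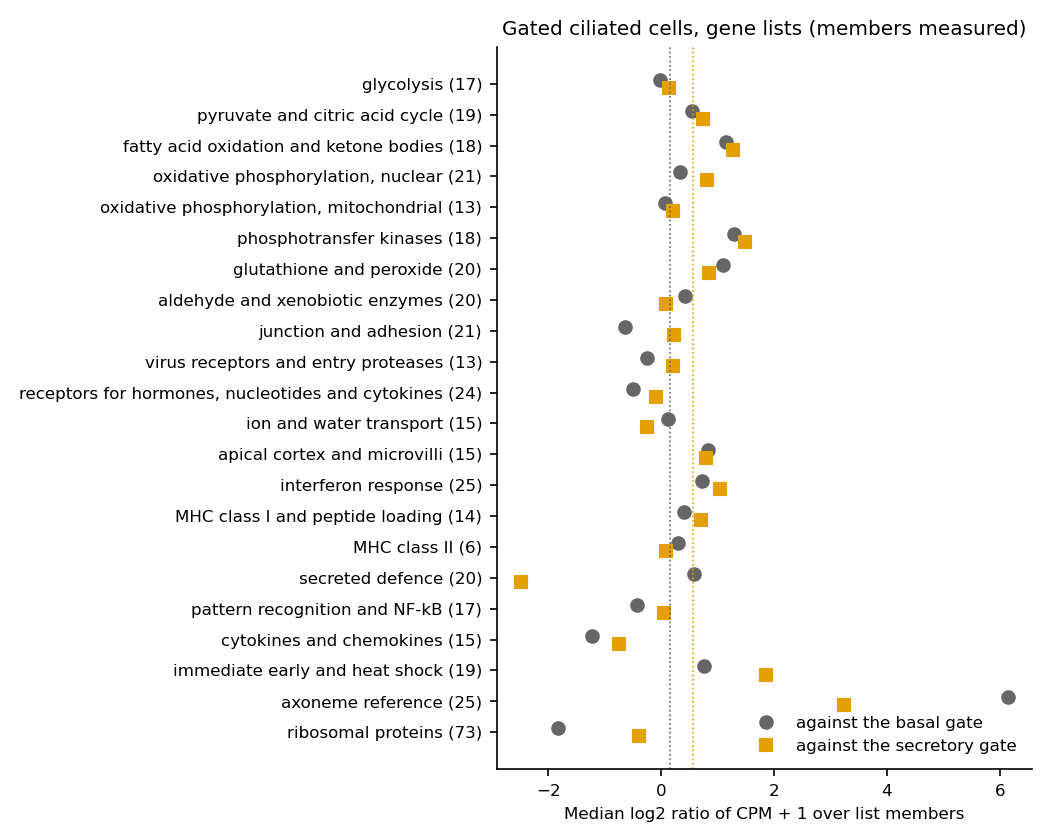
Median log2 ratio of CPM plus 1 over the members of each gene list, against the basal gate (circles) and the secretory gate (squares), with dotted lines at the all-gene medians of 0.16 and 0.57. The number of genes measured stands after each name; fatty acid oxidation, at 1.15 and 1.27, and phosphotransfer kinases, at 1.30 and 1.49, lie to the right of both lines, and ribosomal proteins lie at -1.83 and -0.40.

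Defence genes divided by kind. Of 25 interferon response genes 5 were higher than both gates (Ifit3, Oasl2, Usp18, Rtp4 and Xaf1) and 1 was lower (Ifi27l2a), with medians of 0.72 and 1.04. Usp18, which removes the ubiquitin-like protein Isg15 from its targets and dampens interferon signalling, was at 49.6, 63.2, 69.4 and 65.3 CPM, with ratios of 2.65 and 3.04. Isg15 itself was at 25.2, 18.0, 23.8 and 23.4 CPM, with ratios of 0.91 and 1.21. None of 14 genes of MHC class I presentation was counted in either direction, and class II genes summed to 10.6 to 15.2 CPM.

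Secreted defence products were mostly those of the secretory gate, with 11 of 20 lower than it and 2 higher than both gates, Itln1 and Chia1. Of all genes 2.61% were lower than the secretory gate and 13.7% higher than both gates. Ltf, Slpi and C3 were lower than both. Reg3g, an antibacterial lectin, was the exception in level: members had 19832, 8723, 6334 and 18621 CPM, the secretory gate 9721, 4541, 5401 and 8143 CPM, and the basal gate 221 to 384 CPM. Members were above the secretory gate in each of the 4 libraries, by a median log2 ratio of 0.99 with a range of 0.23 in library 3 to 1.19, so the 2-fold rule was not met. Itln1, a lectin that binds microbial sugars, was at 361, 73.9, 59.0 and 144 CPM, against 13.2 to 42.1 CPM and at most 1.97 CPM. Lyz2 (lysozyme) was at 847, 3483, 1845 and 945 CPM in members, below 2490 to 5117 CPM in the secretory gate and above 42.5 to 97.9 CPM in the basal gate.

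In the sensor and signal lists more genes were lower than both gates than higher, while of all genes 13.7% were higher and 1.46% lower. Of 17 pattern recognition and NF-kB genes none was higher and 2 were lower, Tlr2 and the feedback inhibitor Tnfaip3. Tlr2 was at 1.38 to 1.88 CPM, against 20.8 to 31.8 and 20.7 to 36.7 CPM. Of 15 cytokines and chemokines Ccl28 was higher, at 7.95 to 16.8 CPM, and the neutrophil attractants Cxcl1 and Cxcl2 were lower, at 0.69 to 6.43 CPM. Cxcl17, an antimicrobial chemokine of mucosae, was at 1005, 931, 640 and 922 CPM with ratios of 3.61 and 0.86. Median log2 ratios against the basal and secretory gates were -0.42 and 0.05 for pattern recognition and -1.22 and -0.74 for cytokines and chemokines. Summed over the cytokine and chemokine list, members had 867 to 1252 CPM, most of it Cxcl17. The secretory gate had 686 to 972 CPM and the basal gate 753 to 868 CPM.

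Immediate early and heat shock genes respond within minutes to handling and digestion as well as in tissue. Of 19 such genes 13 were higher than the secretory gate in all libraries, and 3 were higher than both gates (Fos, Dnajb1 and Hsp90aa1). Over all genes 21.5% were higher than the secretory gate and 13.7% higher than both, so the second count was near its share. Fos was at 1255, 1555, 1204 and 1787 CPM in members, 67.9 to 155 CPM in the secretory gate and 353 to 598 CPM in the basal gate. Whether Fos RNA was present before digestion was not tested. Ribosomal protein genes went the other way, with 67 of 73 lower than the basal gate and none lower than both gates. Of all genes 8.79% were lower than the basal gate. Ribosomal protein genes summed to 48815 to 60079 CPM in members. The sums were 65541 to 77813 CPM in the secretory gate and 186453 to 203654 CPM in the basal gate.

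Levels in members were close between libraries for most genes. Among 1944 genes at 100 CPM or more in a library, the median ratio of the highest to the lowest library was 1.27, and 81 genes (4.17%) reached 2-fold, with libraries under 3 UMIs set to 3. With 1 library per genotype, a difference between libraries has no replicate check. Dbi, a carrier of acyl-CoA, was at 324, 365, 0 and 283 CPM in members and was at 0 in library 3 in both other gates as well. Plac9a was at 25.4, 254, 651 and 11.6 CPM, and Serpina9 at 10.1, 70.1, 100 and 11.8 CPM. In both genes libraries 2 and 3 were high and libraries 1 and 4 low.

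The defence genes followed that split in part. Reg3g, Itln1 (361, 73.9, 59.0 and 144 CPM) and Muc4, a membrane mucin (200, 35.6, 94.3 and 155 CPM), were higher in libraries 1 and 4 than in 2 and 3. Lyz2 was highest in library 2. The cholesterol synthesis enzymes Idi1 (257, 61.2, 117 and 135 CPM) and Pmvk (316, 91.6, 130 and 262 CPM) were also higher in libraries 1 and 4. Secretory products were highest in library 3, with Bpifa1 at 1544, 2619, 8423 and 3708 CPM and Scgb3a1 at 681, 403, 3584 and 689 CPM; the secretory gate did not show that order, with Scgb3a1 at 44393, 34919, 35677 and 26501 CPM. The part of carried-over secretory RNA in the library 3 values was not tested.

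Single cells were compared after each was thinned to 1000 UMIs, which kept the 3966 of 4526 members with that depth. Variance over mean of the UMI counts is 1 for pure counting noise, and the median over 2593 genes was 1.04 to 1.05 in the 4 libraries. Reg3g had 15.1, 15.3, 15.2 and 13.6. In library 1 its 10th, 50th and 90th percentiles were 2, 18 and 46 UMIs per 1000, and in library 3 they were 0, 2 and 19. At least 10 UMIs per 1000 were present in 68.6%, 33.0%, 23.5% and 65.4% of cells, so the share above this bound, which was chosen only for description, was larger in libraries 1 and 4.

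**Figure D3:**
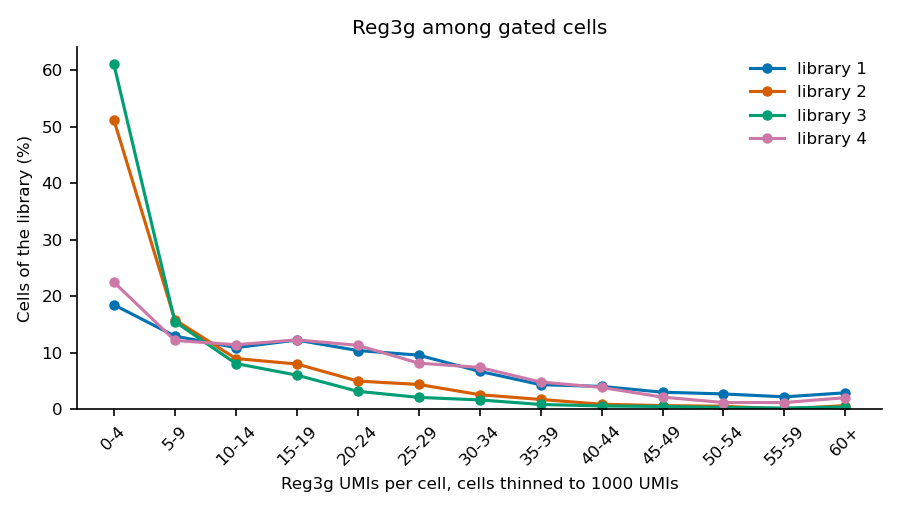
Share of members of each library (vertical axis, percent) by Reg3g UMIs per cell after thinning to 1000 UMIs (horizontal axis, bins of 5). The first bin is the fullest in each library, and the lines of libraries 1 and 4 run above those of libraries 2 and 3 beyond 10 UMIs, where 65.4 to 68.6% of their cells lie against 23.5 to 33.0%.

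Other genes with high variance fell into a few kinds. Bpifa1 reached 21.8 to 60.9, with a mean of 0.96 to 3.23 UMIs. The metallothionein Mt1, which binds zinc and copper, had 6.60 to 13.7, and Lyz2 had 5.18 to 9.85. Keratins Krt8 and Krt18 had 4.65 to 7.16, Jun 4.42 to 5.39 and the heat shock gene Hspa1a 4.23 to 10.3. Acta1, the actin of skeletal muscle, had 4.36 to 6.39 at a mean of only 0.058 to 0.17 UMIs. Summed over lists, the spread was 17.7 to 26.8 for genes of the mitochondrial genome, 7.63 to 13.5 for immediate early and heat shock genes and 7.38 to 9.97 for ribosomal proteins. It was 1.37 to 1.59 for the axoneme reference, 1.66 to 2.45 for interferon response and 1.00 to 1.28 for fatty acid oxidation. This ratio grows with a list's level, so lists of unlike level are set side by side only as a description, and the selection on marker share bears on the axoneme value.

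Depth separated members into unlike profiles. Within each library the members were ordered by total UMIs and cut into 3 equal parts (tertiles), and the deepest tertile had medians of 10368, 5382, 4975 and 7086 UMIs against 1468, 1123, 1084 and 1030 in the shallowest tertile. Each library showed a second peak of deep cells, in the bin of log10 depth that starts at 4 in library 1, at 3.8 in libraries 2 and 4 and at 3.6 in library 3. At a fixed 500 UMIs the median number of genes was 361 to 375 in the shallowest and 366 to 377 in the deepest tertile, so the ranges overlapped. The marker share was 1.33 to 1.45% in the shallowest and 0.79 to 0.95% in the deepest tertile, and the marker bound thus lay closer to the deep cells. The median mitochondrial share per cell was 1.99 to 3.36% in the shallowest and 4.24 to 5.00% in the deepest tertile. Summed over the cells of a tertile the difference was smaller. The 13 genes of the mitochondrial genome had 35694 to 47556 CPM in the shallowest and 46556 to 53659 CPM in the deepest tertile.

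**Figure D4:**
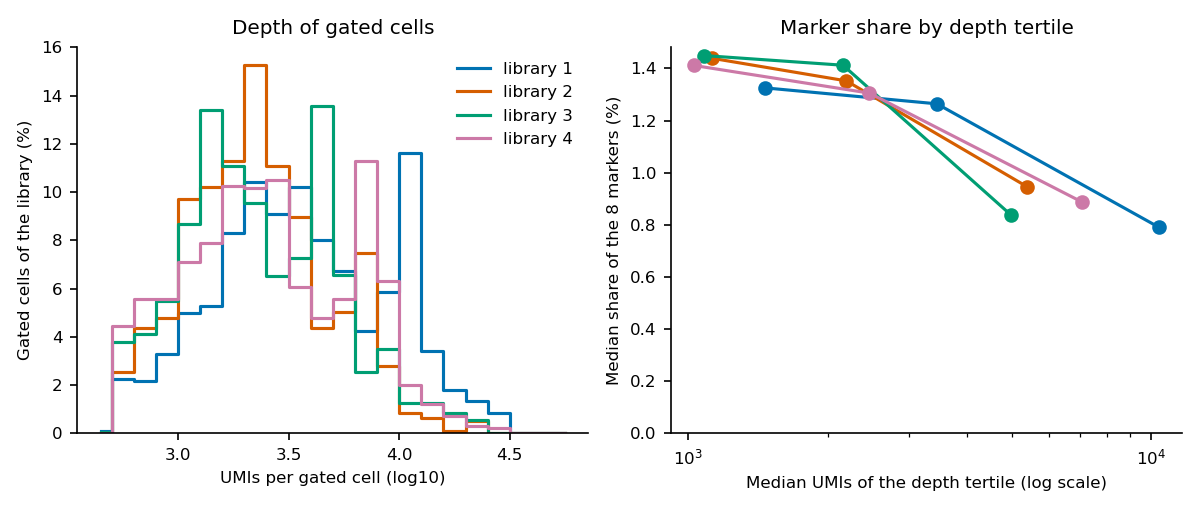
Left, share of members (percent) by log10 UMIs per cell, with 1 line per library. Right, median marker share (percent) against median UMIs of the shallowest, middle and deepest tertile (log axis); the share falls from 1.33 to 1.45% in the shallowest to 0.79 to 0.95% in the deepest tertile.

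UMIs were summed per library and tertile, and the tertiles were compared with edgeR's quasi-likelihood test with the library as a block. Of 8417 genes tested, 1963 were higher in the deepest tertile (23.3%) and 1970 lower (23.4%) at an adjusted p under 0.05, and the median log2 fold change was 0.02. At least 2-fold changes were found for 787 and 715 of them. The rule did not use depth, but a gene's own UMIs are part of the depth, and the marker share differed between the tertiles. With the bound at 1% the counts were 592 and 680 of 6093 genes, and DESeq2 gave 1293 and 1534. In library 3 the deepest tertile had 24662 CPM of secretory markers against 7342 in the shallowest, and in the other libraries 8127 to 12892 against 6803 to 9775. The counts were 1955 and 1967 without the cells of highest doublet score. That removal took only 6, 3, 14 and 9 members of libraries 1 to 4, so the counts could hardly change. The part of doublets and of free RNA was not tested.

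RNA higher in shallow members included that of the transcription factor Pou3f1, histones and early response genes. Lars2, the mitochondrial leucyl-tRNA synthetase, was at 967, 585, 323 and 1082 CPM in the shallowest tertile of libraries 1 to 4 and at 117, 110, 43.4 and 175 CPM in the deepest (log2 fold change -2.85, SE 0.11, adjusted p 1.73e-139). C2cd4b was at 138, 138, 200 and 243 CPM against 20.9, 38.0, 21.4 and 18.2 CPM. Pou3f1 was at 57.6 to 84.8 CPM against 4.08 to 13.6 CPM. The histone H4 genes H4f16 and H4c4 fell by 3.96 and 2.55 on the log2 scale; H4 genes are near-identical copies, so reads may be split between them. The tertiles did not overlap for any of these genes. They were chosen for the largest falls, in the same direction in 4 of 4 libraries, so this was largely fixed by their choice.

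The largest rises with depth included Hmox1, Retreg1 and Psca. Hmox1, the heme-degrading enzyme induced by oxidants, was at 111, 80.7, 103 and 89.4 CPM in the shallowest tertile and at 995, 730, 674 and 617 CPM in the deepest (log2 fold change 2.86, SE 0.13, adjusted p 1.53e-99). Retreg1, a receptor for autophagy of the endoplasmic reticulum, was at 165, 196, 167 and 135 CPM against 1092, 951, 1097 and 908 CPM. Psca, a surface antigen, was at 73.9, 80.7, 79.0 and 32.1 CPM against 715, 490, 306 and 188 CPM. Moesin (Msn), which ties actin to the membrane, was at 3.89 to 10.97 CPM against 27.0 to 60.2 CPM, and the small heat shock protein Cryab at 0 to 9.17 CPM against 13.6 to 67.5 CPM. Itpripl2, Inhba, Serpinb8, Nipal1, Tbc1d1, AA986860 and Snx16 completed the 12 largest increases. The same direction in 4 of 4 libraries was a condition for naming them.

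**Figure D5:**
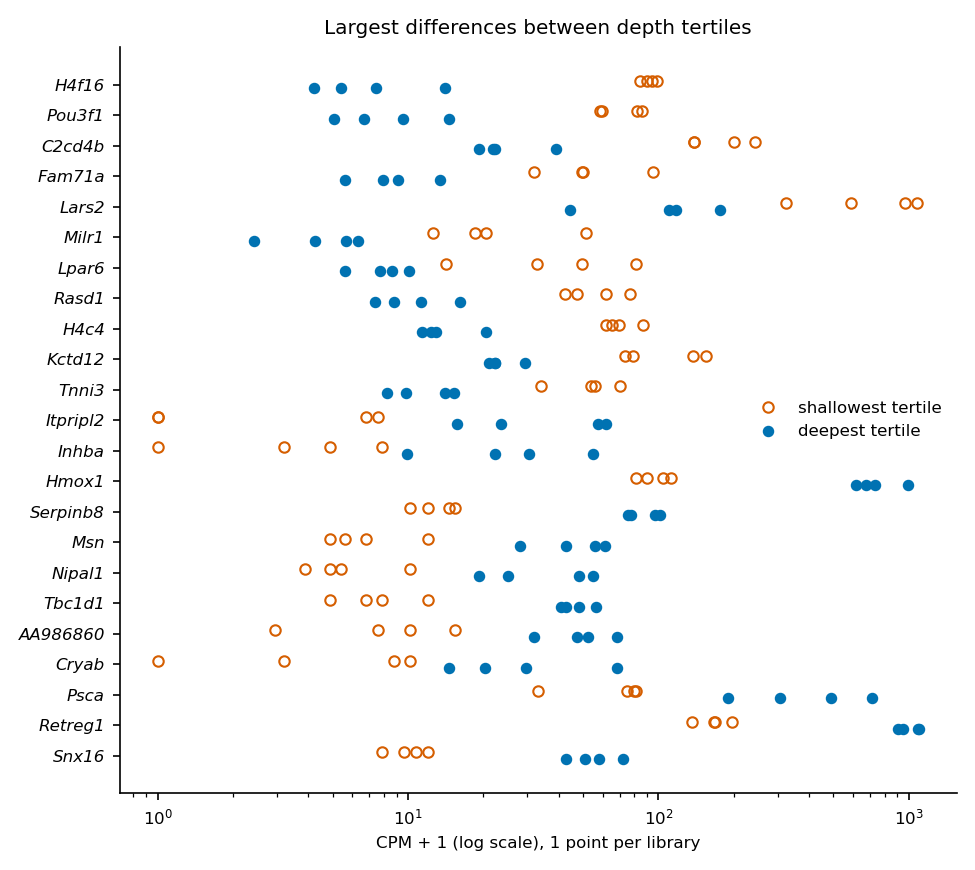
CPM plus 1 (log axis) of genes with the largest falls and of the 12 with the largest rises from the shallowest (open) to the deepest tertile (filled), with 1 point per library. The lower block rises and the upper block falls in 4 of 4 libraries, which the choice of the genes required. Hmox1 goes from 80.7 to 111 CPM to 617 to 995 CPM.

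Lists moved in opposite directions with depth, and their counts are read against 23.3% of all genes tested that rose and 23.4% that fell. Fatty acid oxidation and ketone use had 3 rises and 3 falls in 18. Of 73 ribosomal protein genes 71 fell and none rose, and their sum was 76065 to 83100 CPM in the shallowest against 40508 to 50292 CPM in the deepest tertile. Of 21 nuclear genes of oxidative phosphorylation 12 fell and 3 rose, with a median log2 fold change of -0.68; the respiratory subunit Ndufc1 fell by 1.23. Citric acid cycle enzymes had 8 rises and 1 fall in 19. Oxct1, counted above as higher in members, was at 46.7, 77.8, 63.7 and 68.8 CPM in the shallowest and 212, 216, 236 and 190 CPM in the deepest tertile (log2 fold change 1.66, SE 0.15, adjusted p 7.86e-27), while Etfb fell by 1.19. Oxct1 and Etfb, both higher in summed members than in the gates, thus moved in opposite directions with depth. The deepest tertile held 63.7 to 68.6% of the UMIs of members, so summed levels weigh deep cells most. In the shallowest tertile Oxct1 was near the levels given above for the secretory and basal gates, so its higher level does not hold for shallow members.

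Surface genes were on the deep side, beside 23.3% of all genes tested that rose and 23.4% that fell. Of 19 junction and adhesion genes 13 rose and 2 fell, of 13 apical cortex genes 11 rose and none fell, and of 11 virus receptors and entry proteases 6 rose and none fell. E-cadherin (Cdh1) was at 159 to 239 CPM in the shallowest and 534 to 729 CPM in the deepest tertile. Receptors rose for 7 of 18 and fell for 2: Ifngr2, a chain of the interferon gamma receptor, was at 22.9 to 25.9 CPM against 97.9 to 113 CPM, and the beta-1 adrenergic receptor Adrb1 was at 40.4 to 50.4 CPM against 6.46 to 22.8 CPM.

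Defence and stress lists were split, beside 23.3% of all genes tested that rose and 23.4% that fell. The rises of MHC class I genes and the falls of secreted defence genes were near those shares. Interferon response genes fell for 9 of 17 and rose for 2; Rtp4 was at 56.4, 72.1, 79.0 and 57.3 CPM in the shallowest and 14.99, 23.9, 20.3 and 27.9 CPM in the deepest tertile, while Ifit3 rose by 1.38. Of 12 genes of MHC class I presentation 5 fell and 3 rose: the immunoproteasome subunits Psmb8, Psmb9 and Psmb10 fell by 0.96, 1.43 and 1.07, and the peptide loading genes Tap2, Tapbp and Calr rose by 0.97, 0.86 and 0.52. Of 13 secreted defence genes 7 rose and 3 fell, with Bpifa1 and Ltf rising by 1.82 and 1.72. The secretory marker sums given above were also higher in the deepest tertile, and their part was not tested. Reg3g had a log2 fold change of 0.11 (SE 0.10, adjusted p 0.40), so its spread between cells was not shown to follow depth. Of 19 immediate early and heat shock genes 11 fell and 6 rose. Egr1 fell by 1.54, Ier2 by 1.67, Btg2 by 1.61 and Fos by 1.12, while the heat shock genes Hspb1, Hspa1a, Hspa1b and Dnajb1 rose by 2.14, 1.27, 1.34 and 1.01. Hspa1a and Hspa1b are near-identical copies, so reads may be split between them.

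Cilia genes were on the shallow side, beside 23.3% of all genes tested that rose and 23.4% that fell. Of the 25 axoneme reference genes 15 fell, 1 rose and the median was -0.59; Cfap206 was the one that rose, by 0.32. Foxj1 fell by 0.92. Of the named genes without axonemal names, Chchd10 fell by 1.18, Ifitm1 by 0.79 and Prdx5 by 0.71, while Tm4sf1 rose by 1.79 and Nudc had a log2 fold change of -0.05 (adjusted p 0.71). Deuterosomal markers, genes of cells that are building many centrioles, fell for 3 of 4, and Ccno, a cyclin-like regulator of that step, was at 54.8 to 112 CPM in the shallowest and 13.2 to 22.8 CPM in the deepest tertile. Deup1, the defining gene of the deuterosome, had a log2 fold change of -0.03. Fewer RNA molecules per cell and poorer capture cannot be told apart in these counts.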

How the data were processed

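The deposited data were 1 matrix of raw UMI counts per gene and barcode for 4 libraries, written by Cell Ranger 6.0.1 per the file headers, with build GRCm39 per the submitters' processing notes. Of its 22583 features 4747 had 0 UMIs, and no annotation release is named in the sources used here. A cell filter removed 1308 barcodes. The members and the gene lists were chosen with earlier results of these data known.

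UMIs were summed per library and gate and scaled to CPM of all UMIs; ratios used a pseudocount of 1 CPM. The basal gate required 0.5% of UMIs on 6 basal markers, under 0.5% on the ciliated markers and under 2% Scgb1a1; the secretory gate required under 0.5% on the ciliated markers. Named genes were the 25 with the highest mean level among those 4-fold higher than both gates without axonemal names, the 10 with the highest level in the comparison gates among those 4-fold lower, of each list the members of known role, and for depth the 12 largest changes each way among genes with an adjusted p under 0.05, 4 of 4 libraries in 1 direction and 50 CPM in a tertile. Depth tertiles were tested with edgeR 4.0.16 (TMM, filterByExpr, library block, quasi-likelihood, Benjamini-Hochberg over all genes tested), after the edgeR test was tried on simulated data. DESeq2 1.42.0 served as an alternative and was not tried on simulated data. Each library is 1 pool, so p-values measure the spread over 4 libraries of different genotypes. Scanpy 1.11.5 gave doublet scores; its automatic bound marked 0.056 to 0.55% of cells, so it was not used, and doublets were kept. Intervals cover counting error only. Members held 2894155 to 5641697 UMIs per library. Comparisons of genotypes were not made. Values of a few genes are not reported here.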

Additional observations from a re-analysis of the deposited data

Results flagged for a closer look

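A feature named eGFP, a fluorescent reporter that the labels do not mention, gave counts outside the study's mouse genes. Members had 1553, 94.3, 0 and 1988 CPM of it in libraries 1 to 4 (8761, 273, 0 and 9279 UMIs), and 0 UMIs in library 3 allow at most 0.868 CPM (exact 95% limit). The secretory gate had 141, 120, 0 and 168 CPM and the basal gate 15.7, 213, 0 and 10.4 CPM, so members were above both gates in libraries 1 and 4 and below both in library 2. At least 1 UMI was found in 91.2%, 22.1%, 0% and 92.5% of members, at median depths of 2158 to 3436 UMIs, and in 2.31%, 49.6%, 0% and 4.93% of basal cells, at 3124 to 5341 UMIs. The origin of these counts was not tested.

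The cell filter removed 140 barcodes that met the marker and Scgb1a1 bounds, 138 of them for over 20% mitochondrial UMIs and 10 for under 300 genes. Their median depth was 858 UMIs, their median mitochondrial share 26.5%, and they carried 5340 CPM of the axoneme reference genes, against 4094 CPM in members. The shallowest tertile of members, nearer to them in depth, had 4658 to 5433 CPM, so the removed barcodes were within the range of shallow members.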

How the results depend on the processing

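The share of members was 22.2%, and it was 24.2% with a marker share of at least 0.3%, 14.4% with 1% and 23.1% without the highest doublet scores, outside its counting interval; with the 3 other bounds it was 22.0 to 22.5%. Genes higher than both gates numbered 765 at 4-fold in place of 1755 at 2-fold; over the other 11 settings with all libraries they numbered 1234 to 1967, and without each library in turn 1839 to 1928. Genes lower than both gates numbered 187, and 100 with a pseudocount of 5 CPM, 423 with median-of-ratios size factors, 43 at 4-fold, 116 with a marker share of 0.3% and 361 with 1%; without each library in turn they numbered 192 to 234. A secretory gate with ciliated markers under 0.05%, and a basal gate at 0.2%, both chosen after seeing the data, gave 1882 and 1967 higher and 202 and 206 lower genes. Genes higher in the deepest tertile numbered 592 with a marker share of at least 1% and 1293 with DESeq2, against 1963, and genes lower there numbered 680 with a marker share of 1%, against 1970; over the other settings both stayed within 1.5 times. Without each library in turn the counts were 1623 to 1749 higher and 1623 to 1819 lower. The 35 named ratio genes and the 24 named depth genes kept their direction and their side of the threshold in all settings that measured them. They were chosen for large differences in the same direction in every library, so this outcome was largely fixed by their choice and is no check of the other genes. Of 660 list medians under another setting, 24 changed sign, in 2 lists against the basal gate (glycolysis and the mitochondrial genome) and 8 against the secretory gate; with median-of-ratios scaling the medians against the secretory gate of junction, virus receptor and pattern recognition genes were -0.42, -0.43 and -0.53. No paired analysis was possible between genotypes because each genotype is 1 library and no library could be tied to a genotype. The depth comparison paired tertiles within a library, and without that block its counts were 1665 and 1727. Depth limits the smallest levels: 0 UMIs in the members of library 3 allow 0.868 CPM. The cause of these shifts was not tested.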
